A study of Mus musculus with 16 samples.

Results

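Striatal projection neurons (SPNs) are recognised by a small set of genes, and 31 of these identity genes were examined in the cortex and the striatum of mice with a conditional deletion of Trrap, a cofactor of histone acetyltransferases, directed to forebrain neurons. The members were named by symbol, with earlier results of these data known. Of the 31, 30 were matched to a row among the 53801 genes of the count table. They comprised 5 direct-pathway genes (Drd1, Tac1, Pdyn, Isl1 and Ebf1), 4 indirect-pathway genes (Drd2, Penk, Adora2a and Gpr6) and 21 genes shared by both pathways. Gpr52, the remaining indirect-pathway gene of the list, was not analysed here. RNA-seq counts were available for 16 libraries from 9 mice aged 10 days, of a mixed C57BL6/J-129sv strain. The genotype was Trrap Fl/+ with the Camk2-Cre transgene in controls, so that 1 Trrap allele was floxed there too, and Trrap Fl/Fl with the same transgene in Trrap-FBΔ mice. Each group had 4 libraries per tissue, of which 2 control cortices, 1 control striatum and 3 of each Trrap-FBΔ tissue were from females. Of the controls, mice 58, 63 and 64 gave both tissues, mouse 55 only a cortex and mouse 65 only a striatum, and Trrap-FBΔ mice 57, 59, 60 and 61 gave both. The study names the Cre line Tg(Camk2a-cre/ERT2)2Gsc. It describes the deletion as one of forebrain glutamatergic neurons and of pyramidal neurons of cortex and striatum, efficient at this age. For this efficiency it refers to western blots of the forebrain and to qPCR. As background, SPNs are GABAergic, and an ERT2 fusion of Cre is activated by tamoxifen. Tamoxifen treatment of these mice is not given in the sources used here.

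SPNs make up most neurons of the striatum and fall into a pair of output pathways. Direct-pathway SPNs carry the dopamine receptor Drd1 and release substance P (from Tac1) and dynorphin (from Pdyn), and dopamine raises their cAMP through the G protein subunits encoded by Gnal and Gng7 and the adenylyl cyclase Adcy5. Indirect-pathway SPNs carry Drd2 and the adenosine receptor Adora2a and release enkephalin (from Penk). Both types contain DARPP-32 (Ppp1r1b), a phosphatase inhibitor that integrates cAMP signals, and the phosphodiesterases Pde10a and Pde1b. Several members also have known expression in cortical neurons, among them Foxp1, Arpp21, Drd1 and Pdyn.

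Between 28743866 and 48761429 reads were counted per library. Trrap itself, counted over the whole gene and not over the floxed exons, was at 140 to 151 CPM (read counts scaled to a common library size with TMM factors) in control striata and 135 to 148 CPM in Trrap-FBΔ striata, and at 136 to 173 CPM and 121 to 146 CPM in the respective cortices. These ranges overlapped, and the log2 fold changes of -0.04 ± 0.05 (SE) and -0.18 ± 0.08 did not pass edgeR's quasi-likelihood test (Benjamini-Hochberg adjusted p = 0.519 and 0.0826), so that total Trrap counts did not separate the genotypes. In the cortex Trrap did pass without control mouse 63 (adjusted p = 0.0336), with low genes kept (0.046) and in a joint fit of the 16 libraries (0.0465). Summed markers of cortical pyramidal neurons followed the tissue labels, at 2004 to 2429 CPM in the 8 cortices and 431 to 883 CPM in the 8 libraries labelled striatum. Slc17a7 made up 890 to 1220 CPM of the sum in control cortices and 227 to 395 CPM in control striata. Of the 13 genes, 12 were called lower in control striata than in control cortices. Nrn1 was called higher there (log2 difference 0.30 ± 0.11, adjusted p = 0.0451, edgeR). Thalamic markers (Tcf7l2, Lef1, Gbx2, Slc17a6 and Rora) were present in the libraries labelled striatum at a summed level of 390 to 620 CPM, against 124 to 168 CPM in the cortices. None of the listed marker genes was at 0 throughout a group.

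Libraries of the same group differed strongly in SPN genes, and this came before any difference between genotypes. Ppp1r1b (chromosome 11, 98348404 to 98357796, GRCm38), the DARPP-32 gene, was at 19.4, 97.5, 299.5 and 89.0 CPM in the control striata of mice 58, 63, 64 and 65, a ratio of 15.4 between the highest and the lowest. Control cortices (mice 55, 58, 63 and 64) held it at 51.8, 178, 185 and 58.5 CPM. The cortices of mice 58 and 63 thus held more Ppp1r1b than 3 of the 4 control striata, and the library labelled striatum of mouse 58 held less than every cortex. The Trrap-FBΔ striata lay closer together, at 128, 66.4, 64.6 and 72.7 CPM in mice 57, 59, 60 and 61, as did the Trrap-FBΔ cortices at 72.5, 72.0, 102.5 and 105 CPM. In bulk tissue, fewer SPNs in a sample and less RNA of these genes per SPN cannot be told apart.

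The pattern of Ppp1r1b was shared by most members. Mouse 64 gave the highest and mouse 58 the lowest of the 4 control striata for 26 of the 30 members, an order found for 8.27% of the 18872 genes tested in the striatum. The exceptions were Ebf1, Zfp503, Eya1 and Oprm1. Among control cortices, those of mice 58 and 63 were both above those of mice 55 and 64 for 28 members, all but Ikzf1 and Eya1, and for 15.1% of the 18268 genes tested in the cortex. Mouse 57 gave the highest Trrap-FBΔ striatum for 25 members and the lowest Trrap-FBΔ cortex for 20, beside 23.8% and 30.3% of all genes. The ratio of the highest to the lowest library had a median of 2.37 over the members in control striata and 1.89 in control cortices, beside 1.25 and 1.2 over all genes tested. In Trrap-FBΔ mice the median ratio was 1.36 in the striatum and 1.33 in the cortex, beside 1.17 and 1.2 over all genes.

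**Figure D1:**
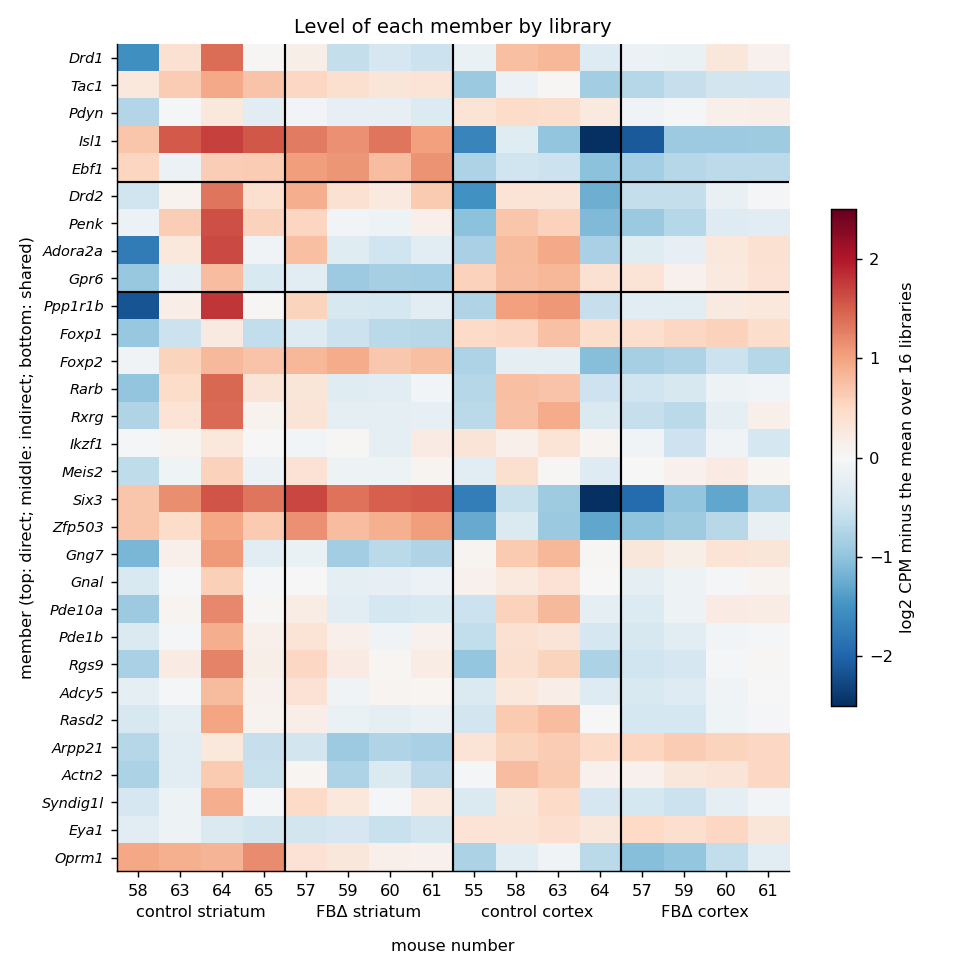
Heat map of the 30 members (rows) in the 16 libraries (columns, by mouse number), coloured by log2 CPM minus the mean of the gene over all libraries. The control striatum of mouse 64 is the highest of its group and that of mouse 58 the lowest in 26 rows. Isl1, Six3, Ebf1, Foxp2, Zfp503, Tac1 and Oprm1 are higher in every striatum than in every cortex, and Foxp1, Arpp21 and Eya1 are lower.

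Other cell types moved with this order in part. Oligodendrocyte markers (Mbp, Mobp and 5 others) summed to 7038, 2788, 3708 and 5424 CPM in the control striata of mice 58, 63, 64 and 65, so that the library lowest in SPN genes was the highest in these markers, although the library highest in SPN genes was not the lowest. Pyramidal neuron markers summed to 883, 838, 766 and 606 CPM in the same libraries, and thalamic markers to 513, 434, 390 and 605 CPM. Choroid plexus markers had the order of the SPN genes, at 115, 383, 557.5 and 355 CPM, and were highest among Trrap-FBΔ striata in mouse 57, at 732 CPM. Microglial markers were likewise lowest in mouse 58 and highest in mouse 64 (205 and 249.5 CPM). In the control cortices of mice 58 and 63, which were high in SPN genes, oligodendrocyte markers were high too, at 2652 and 2465 CPM against 1814 and 1605 CPM in mice 55 and 64, the reverse of mouse 58 in the striatum. Their part in the spread of SPN genes was not tested, and neither was the extent of tissue that each library labelled striatum or cortex held.

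Per length of exon sequence, the members covered a broad range of levels in the control striata. Penk was the highest at 344 ± 186 TPM (mean ± SD, n = 4), a scale on which counts are divided by exon length before the libraries are brought to a common total. Gng7 (262 ± 167 TPM) and Ppp1r1b (165 ± 159 TPM) came next, and these neighbours did not differ beyond their spread. Drd1 (31.5 ± 23.2 TPM), Drd2 (32.8 ± 18.8 TPM) and Adora2a (35.7 ± 31.8 TPM), the receptors of the pathways, lay within 1 SD of each other, and the intervals of mean ± SD of each overlapped that of the peptide gene Tac1 (57.5 ± 11.7 TPM). Several transcription factors were lower, with Foxp1 at 23.4 ± 9.0 TPM, Six3 at 19.9 ± 5.1 TPM, Isl1 at 16.8 ± 4.6 TPM and Ebf1 at 5.85 ± 1.48 TPM. Oprm1, the mu-opioid receptor gene, was the lowest member at 2.84 ± 0.36 TPM. In Trrap-FBΔ striata the same gene stood first, with Penk at 235 ± 51 TPM, and the same gene stood last, with Oprm1 at 1.84 ± 0.14 TPM.

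Whether the identity genes marked the striatum was asked first within mice, since 7 mice gave both tissues. In control mouse 64, 27 of 30 members were higher in the library labelled striatum than in the cortex of the same mouse, with a median log2 difference of 1.48. In control mice 58 and 63, by contrast, 23 and 22 members were lower in the striatum, with medians of -0.94 and -0.37. The 4 Trrap-FBΔ mice lay between these, with 24, 17, 13 and 16 members higher in the striatum of mice 57, 59, 60 and 61 and medians of 0.77, 0.26, -0.13 and 0.01. Over all genes the median difference of each mouse lay between -0.01 and 0.02. Most SPN genes therefore did not follow the tissue label from mouse to mouse. Over the 30 members, the deviations of the striatum and the cortex of a mouse from their group means were correlated with r of -0.57, 0.21 and -0.43 in mice 58, 63 and 64 and of -0.15, 0.15, -0.44 and -0.16 in mice 57, 59, 60 and 61, as a description over genes that share a library.

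A few members did follow the label in all 7 mice. Isl1 and Six3, homeobox genes of the developing ventral telencephalon, were higher in the striatum by 1.0 to 4.26 and 1.25 to 4.24 on the log2 scale. Ebf1, needed for differentiation of direct-pathway SPNs, was higher by 0.38 to 1.88, Zfp503 (also named Nolz1) by 1.05 to 2.27, Foxp2 by 0.15 to 1.87, Tac1 by 0.42 to 1.84 and Oprm1 by 0.37 to 1.52. Foxp1, Arpp21 and Eya1 were lower in the striatum of all 7 mice. Ppp1r1b itself ranged from -3.20 in mouse 58 to 2.36 in mouse 64.

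**Figure D2:**
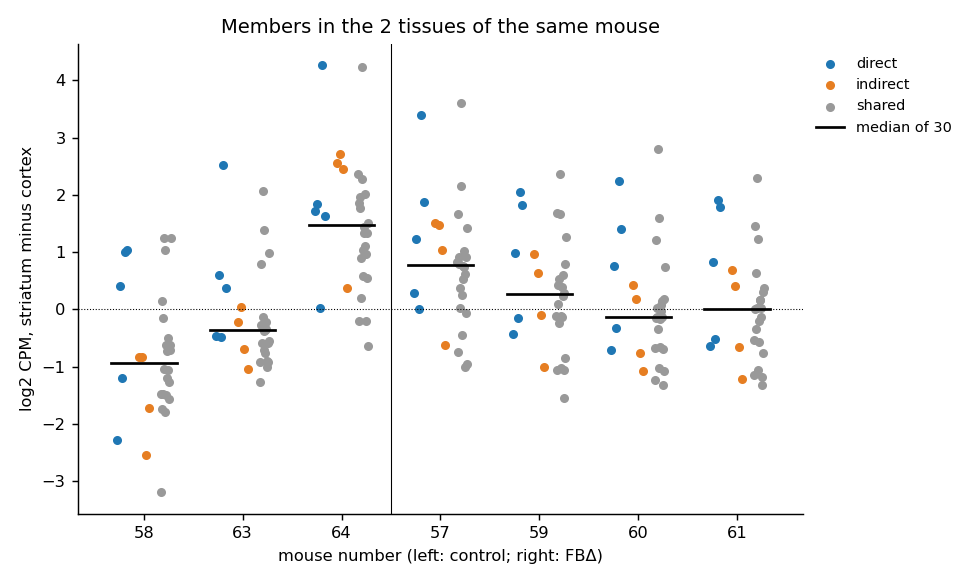
Log2 CPM in the striatum minus log2 CPM in the cortex of the same mouse for each member (points, coloured by pathway), in 3 control mice and 4 Trrap-FBΔ mice, with the median of the 30 members as a line. The median is 1.48 in mouse 64 and -0.94 in mouse 58.

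Across groups, 11 of 30 members passed the test between tissues in control mice (7 higher and 4 lower in the striatum), beside 40.4% of all 18284 genes (20.3% higher and 20.1% lower). Isl1 (log2 difference 2.55 ± 0.37, SE; adjusted p = 0.00039), Six3 (2.47 ± 0.35), Zfp503 (1.60 ± 0.20), Oprm1 (1.40 ± 0.16), Ebf1 (1.13 ± 0.18), Tac1 (1.08 ± 0.22) and Foxp2 (1.07 ± 0.22) were higher in the striatum. Foxp1, Arpp21, Eya1 and Pdyn were lower, by -0.95 ± 0.20, -0.78 ± 0.18, -0.65 ± 0.08 and -0.53 ± 0.16. The call of Pdyn (adjusted p = 0.026) was lost when the mouse was entered as a block (-0.54, adjusted p = 0.0801). Drd1 (0.05 ± 0.48, adjusted p = 0.952) and Ppp1r1b (0.09 ± 0.67, adjusted p = 0.928) showed no difference between tissues that could be detected over the spread of these libraries. At an unadjusted p under 0.05 stood 12 members, against 48.3% of all genes.

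In Trrap-FBΔ mice, 20 members passed the test between tissues (13 higher and 7 lower in the striatum), beside 54.7% of 18872 genes (27.4% in each direction). At an unadjusted p under 0.05 stood 21, against 59.5% of all genes. The 11 members that passed in controls passed here too, in the same direction. Drd2 (0.89 ± 0.16, adjusted p = 0.000467) and Penk (0.67 ± 0.16, adjusted p = 0.00371) were further members higher in the striatum, with the control differences at 0.76 ± 0.46 and 0.79 ± 0.46. Among control mice with both tissues, only mouse 64 had a large difference in this direction. Drd2 differed by -0.84, -0.22 and 2.56 and Penk by -0.83, 0.05 and 2.71 within mice 58, 63 and 64. The control test also held the unpaired cortex of mouse 55 and striatum of mouse 65. The median over the 4 indirect-pathway members in controls was 0.49, and it was -0.12 without the striatum of mouse 64 and 0.09 with the mouse as a block. Gpr6, an orphan receptor of indirect-pathway SPNs, was lower in the striatum (-0.96 ± 0.13, adjusted p = 7.21e-05), as was Gng7 (-0.86 ± 0.13, adjusted p = 0.00011).

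The question of the genotype was whether loss of Trrap changed the identity genes in the striatum. Of the 30 members, 2 passed the test, beside 30.2% of all 18872 genes tested. Ebf1 was higher and Oprm1 lower in Trrap-FBΔ striata (14.4% of all genes were called higher and 15.8% lower). The genotypes did not overlap in these 2 members, beside 31.6% of all genes. At an unadjusted p under 0.05 stood 5 members, against 41.9% of all genes. The log2 fold change was below 0 for 23 members and above 0 for 7. Its median was -0.22 over the direct-pathway, -0.56 over the indirect-pathway and -0.17 over the shared members, and -0.01 over all genes.

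The dopamine receptors showed how the spread of the controls bore on this. Drd1 (chromosome 13, 54051183 to 54055705) was at 7.84, 29.3, 59.9 and 23.2 CPM in the control striata of mice 58, 63, 64 and 65 and at 24.9, 15.0, 16.9 and 15.6 CPM in the Trrap-FBΔ striata of mice 57, 59, 60 and 61. All 4 Trrap-FBΔ values fell inside the control range. Drd1 had a log2 fold change of -0.73 ± 0.45 (adjusted p = 0.245), and an exact 2-sided permutation test of the CPM values gave p = 0.4 (4 mice against 4 cannot go below 0.0286, and p-values measure the spread between these mice). Drd2 (chromosome 9, 49340627 to 49408177) was at 11.0, 16.6, 39.2 and 20.6 CPM in the controls and 29.1, 20.1, 18.4 and 24.3 CPM in Trrap-FBΔ. Its log2 fold change was 0.07 ± 0.32 (adjusted p = 0.889).

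Adora2a (chromosome 10, 75316877 to 75334784), the adenosine receptor through which cAMP rises in indirect-pathway SPNs, was at 6.08, 24.5, 64.6 and 19.4 CPM in control striata. In Trrap-FBΔ striata it was at 34.3, 16.6, 14.6 and 16.9 CPM, again inside the control range. This gave a log2 fold change of -0.48 ± 0.55 (adjusted p = 0.54). Gpr6 (chromosome 10, 41069977 to 41072285) was at 4.22, 7.12, 13.9 and 6.30 CPM in controls and at 6.78, 4.37, 4.58 and 4.55 CPM in Trrap-FBΔ. The control of mouse 58 was below all Trrap-FBΔ values, and 2 of the 3 other controls were above them. Its log2 fold change was -0.64 ± 0.31 (adjusted p = 0.144).

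Of the neuropeptide genes, Penk (chromosome 4, 4133531 to 4138819) was at 76.4, 129, 259 and 126 CPM in control striata and at 122, 80.2, 76.7 and 91.4 CPM in Trrap-FBΔ striata. The control of mouse 58 was the lowest of the 8 and the other 3 controls were above every Trrap-FBΔ value (log2 fold change -0.67 ± 0.31, adjusted p = 0.122). Tac1 (chromosome 6, 7554879 to 7565834) had the same order, at 39.0, 50.1, 63 and 53.3 CPM in controls and 46.6, 43.0, 39.9 and 41.3 CPM in Trrap-FBΔ (-0.27 ± 0.12, adjusted p = 0.118). Pdyn (chromosome 2, 129686565 to 129699844) was at 18.0, 29.1, 35.9 and 24.7 CPM in controls and 28.5, 26.2, 26.1 and 23.5 CPM in Trrap-FBΔ, with the Trrap-FBΔ values inside the control range (-0.05 ± 0.17, adjusted p = 0.848).

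**Figure D3:**
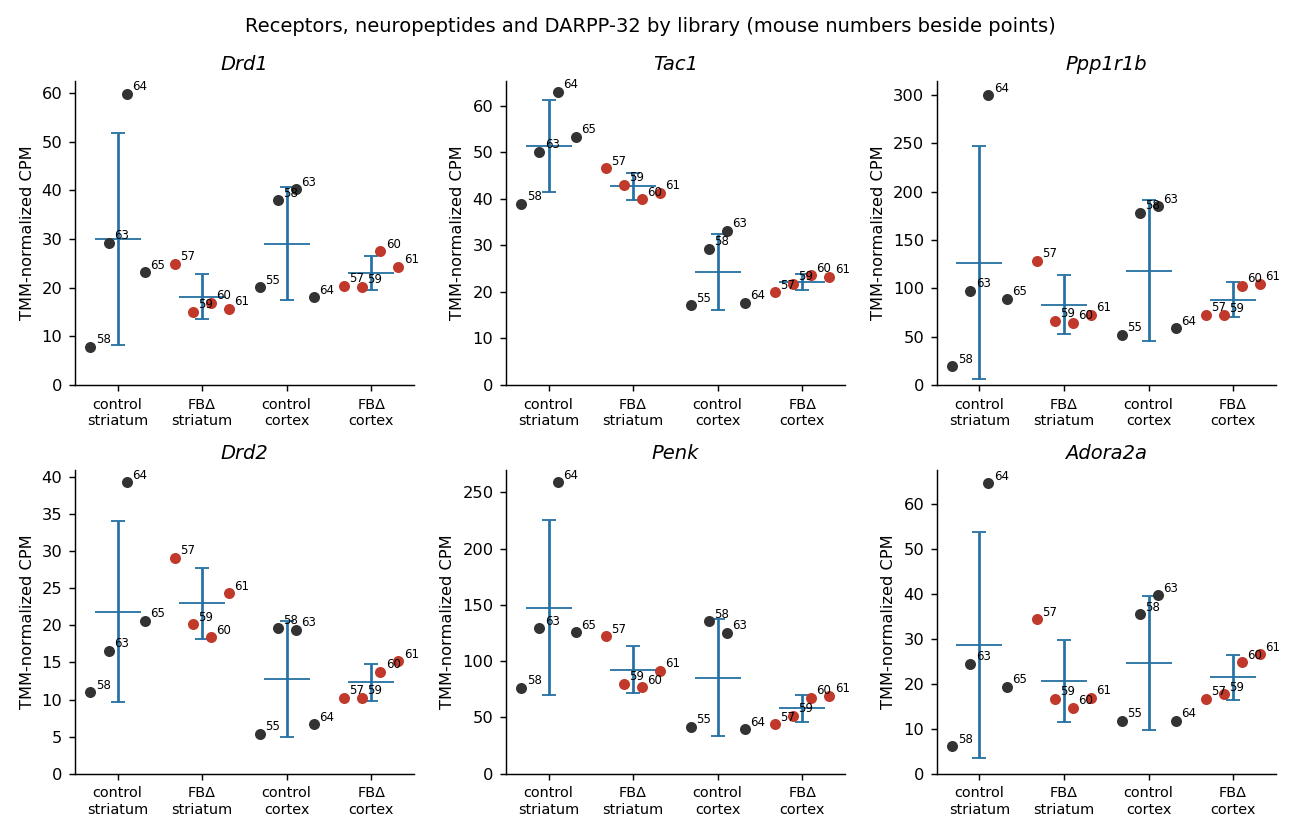
TMM-normalized CPM of Drd1, Tac1, Ppp1r1b, Drd2, Penk and Adora2a in each library (points, labelled by mouse number; black for control, red for Trrap-FBΔ), with the group mean and SD in blue, n = 4 per group. The control striata of mice 58 and 64 mark the lowest and highest control striatum in all 6 panels, and Ppp1r1b runs from 19.4 to 299.5 CPM between them.

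Isl1 (chromosome 13, 116298281 to 116309689), a LIM homeobox gene of direct-pathway SPNs and cholinergic interneurons, was at 10.6, 18.9, 21.3 and 19.1 CPM in control striata and 16.0, 14.3, 16.4 and 13.2 CPM in Trrap-FBΔ striata. Here too 3 controls were above all Trrap-FBΔ values and mouse 58 was below them (-0.22 ± 0.18, adjusted p = 0.369). The other transcription factors of the shared set overlapped between the genotypes as well. Log2 fold changes were -0.61 ± 0.38 for Rarb and -0.55 ± 0.36 for Rxrg, retinoid receptors of SPNs, 0.30 ± 0.15 for Six3, 0.27 ± 0.12 for Zfp503, 0.26 ± 0.15 for Foxp2 and between -0.17 and 0.07 for Foxp1, Meis2, Ikzf1 and Eya1.

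Among the intracellular signalling genes of the shared set, none passed the test in the striatum. Gng7, the gamma subunit that pairs with the Golf alpha subunit, had the most negative log2 fold change (-0.75 ± 0.37, adjusted p = 0.15), followed by Ppp1r1b (-0.61 ± 0.59, adjusted p = 0.471), Pde10a (-0.49 ± 0.35), Arpp21 (-0.45 ± 0.19, adjusted p = 0.0963), Rasd2 (-0.31 ± 0.26), Gnal (-0.23 ± 0.17), Rgs9 (-0.13 ± 0.32), Pde1b (-0.11 ± 0.22) and Adcy5 (-0.10 ± 0.20). The cytoskeletal gene Actn2 was at -0.28 ± 0.29 and the synaptic gene Syndig1l at 0.07 ± 0.24.

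The count of members called in the striatum turned on single control libraries. Without the control striatum of mouse 58, 10 members passed, 9 of them lower in Trrap-FBΔ: Drd1 (-1.05, adjusted p = 0.0286), Tac1 (-0.38, adjusted p = 0.0108), Penk (-0.89, adjusted p = 0.0275), Isl1 (-0.40, adjusted p = 0.0101), Gpr6 (-0.84, adjusted p = 0.0425), Rarb (-0.89), Gng7 (-1.01), Arpp21 (-0.57) and Oprm1 (-0.76), with Ebf1 higher. Without the control striatum of mouse 64, 5 members passed, 4 of them higher: Ebf1, Six3 (0.43, adjusted p = 0.046), Zfp503 (0.37, adjusted p = 0.0311) and Syndig1l (0.43, adjusted p = 0.0325), with Oprm1 lower. The median over the indirect-pathway members went from -0.83 without mouse 58 to 0.04 without mouse 64, and that over the shared members from -0.35 to 0.11. For most members, then, neither a fall nor a lack of change in the Trrap-FBΔ striatum could be read from these 8 libraries.

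Ebf1 (ENSMUSG00000057098, chromosome 11, 44617317 to 45008091) was at 15.9, 9.87, 16.9 and 17.1 CPM in the control striata of mice 58, 63, 64 and 65, and at 22.6, 23.7, 18.7 and 24.1 CPM in the Trrap-FBΔ striata of mice 57, 59, 60 and 61. All Trrap-FBΔ values were above all controls. The controls of mice 58 and 64 differed little, so that Ebf1 did not follow the order that 26 of the 30 members had in these striata. The log2 fold change was 0.58 ± 0.16 (adjusted p = 0.0189; exact permutation p = 0.0286). It lay at 0.61 without mouse 58 and at 0.65 without mouse 64, both past the threshold. Without Trrap-FBΔ mouse 59 or 61 the adjusted p was 0.0513 and 0.0501.

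Oprm1 (ENSMUSG00000000766, chromosome 10, 6758506 to 7038198), the mu-opioid receptor gene that marks the striosome compartment of the striatum, was at 5.95, 5.69, 5.47 and 6.89 CPM in control striata and at 3.91, 3.74, 3.34 and 3.29 CPM in Trrap-FBΔ striata. The genotypes were well apart, and the ratio of the highest to the lowest library was small within each. The log2 fold change was -0.75 ± 0.10 (adjusted p = 0.000765; exact permutation p = 0.0286), and it ranged from -0.80 to -0.68 over all alternative settings and left-out libraries, each past the threshold. In the cortex Oprm1 was at 1.76, 2.51, 2.86 and 1.91 CPM in controls and 1.46, 1.56, 1.99 and 2.54 CPM in Trrap-FBΔ (-0.26 ± 0.21, adjusted p = 0.358), with overlapping groups.

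Markers of some other cells differed between the same striata, where 15.8% of all genes were called lower and 14.4% higher. Pyramidal neuron markers summed to 606 to 883 CPM in control and 431 to 555 CPM in Trrap-FBΔ striata, with 8 of 13 genes lower and none higher. These 8 included Nrn1, the gene of this list that was higher in the striatum than in the cortex. Of 5 thalamic markers, Tcf7l2 and Lef1 were higher in Trrap-FBΔ (summed level 390 to 605 CPM in control and 504 to 620 CPM in Trrap-FBΔ). Gbx2, Slc17a6 and Rora did not pass, at log2 fold changes of -0.02, 0.01 and 0.215. Of 8 markers of globus pallidus and septum, Npas1 and Zic1 were higher (summed level 188 to 252 CPM against 247 to 300 CPM). Trpc4 and Dgkg were at -0.46 and -0.37 and the others between 0.03 and 0.29, none of which passed. Between the tissues of control mice, Zic1 was higher in the striatum (log2 difference 2.12 ± 0.22) and Npas1 was lower there (-0.27 ± 0.07). Neuroblast markers were lower in 5 of 8 genes (789 to 930 CPM against 462 to 532 CPM). Of these sums, Tubb3 made up 510 to 567 CPM in control and 241 to 324 CPM in Trrap-FBΔ striata. Dlx1, Dlx2 and Sp8 of the same list did not pass, at log2 fold changes of -0.11, 0.09 and 0.01. Microglial markers were lower in 5 of 6 (205 to 250 CPM against 163 to 179 CPM). The part of all these cells in the values of Ebf1 and Oprm1 was not tested. Interneuron markers were lower in 3 of 12 genes, oligodendrocyte markers in 2 of 7 and endothelial markers in 1 of 6, astrocyte markers were higher in 2 of 8, and no marker of choroid plexus or blood passed the test.

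In the cortex, 4 of 30 members passed the test of genotype, beside 33.3% of 18268 genes, and all 4 were lower in Trrap-FBΔ (17.6% of all genes were called lower). They were Pdyn, Gpr6, Ikzf1 and Gnal. The genotypes did not overlap in 3 of these (Pdyn, Gpr6 and Ikzf1), beside 32.7% of all genes, and 5 members stood at an unadjusted p under 0.05, against 44.0% of all genes. The log2 fold change was below 0 for 25 of 30 members, with medians of -0.14 over direct-pathway, -0.30 over indirect-pathway and -0.17 over shared members, and 0.00 over all genes. These values too turned on single control cortices. Without mouse 63 the medians were 0.04, -0.10 and -0.04 with 18 members below 0, and without mouse 58 they were -0.04, -0.12 and -0.07 with 19 below 0. Without mouse 64 they were -0.28, -0.46 and -0.32, and without mouse 55 they were -0.27, -0.42 and -0.29, each with 26 below 0.

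Pdyn (ENSMUSG00000027400), which encodes prodynorphin, was at 38.0, 41.3, 40.8 and 35.4 CPM in control cortices (mice 55, 58, 63 and 64) and at 28.4, 29, 32.8 and 33.8 CPM in the Trrap-FBΔ cortices. Every Trrap-FBΔ cortex was below every control (-0.33 ± 0.07, adjusted p = 0.00602; exact permutation p = 0.0286). Gpr6 (ENSMUSG00000046922) was at 12.1, 14.0, 14.6 and 10.7 CPM in controls and 10.4, 8.79, 9.64 and 10.6 CPM in Trrap-FBΔ. The groups were apart by a narrow margin, between 10.7 CPM in mouse 64 and 10.6 CPM in mouse 61 (-0.38 ± 0.10, adjusted p = 0.014).

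Ikzf1 (ENSMUSG00000018654, chromosome 11, 11685003 to 11772926), the zinc finger gene of Ikaros, which acts in blood cells and in the generation of enkephalin-positive SPNs, was at 6.76, 5.92, 6.91 and 5.74 CPM in control cortices and 5.12, 3.83, 5.09 and 4.02 CPM in Trrap-FBΔ cortices. All controls were above all Trrap-FBΔ values (-0.48 ± 0.12, adjusted p = 0.00969). All 6 microglial markers were also lower in these cortices, with a summed level of 257 to 289 CPM in controls and 182 to 231 CPM in Trrap-FBΔ. Oligodendrocyte markers were lower in 7 of 7 genes, endothelial markers in 5 of 6, neuroblast markers in 4 of 8, pyramidal neuron, thalamic and astrocyte markers in 2 each, and 1 interneuron marker, 1 pallidal and septal marker and 2 astrocyte markers were higher. Over all genes tested in the cortex, 17.6% were called lower and 15.7% higher. The part of these marked cells in the values of Ikzf1 and the other called members was not tested. Gnal (ENSMUSG00000024524), the alpha subunit of Golf, was at 364, 400, 431 and 337 CPM in controls and 287, 307, 328 and 352 CPM in Trrap-FBΔ. Here mouse 61 was above control mouse 64 (-0.27 ± 0.08, adjusted p = 0.0292; exact permutation p = 0.0571), and the call was lost without any 1 of 5 libraries, with adjusted p between 0.055 and 0.0833 (control mice 58 and 63, Trrap-FBΔ mice 57, 59 and 60).

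**Figure D4:**
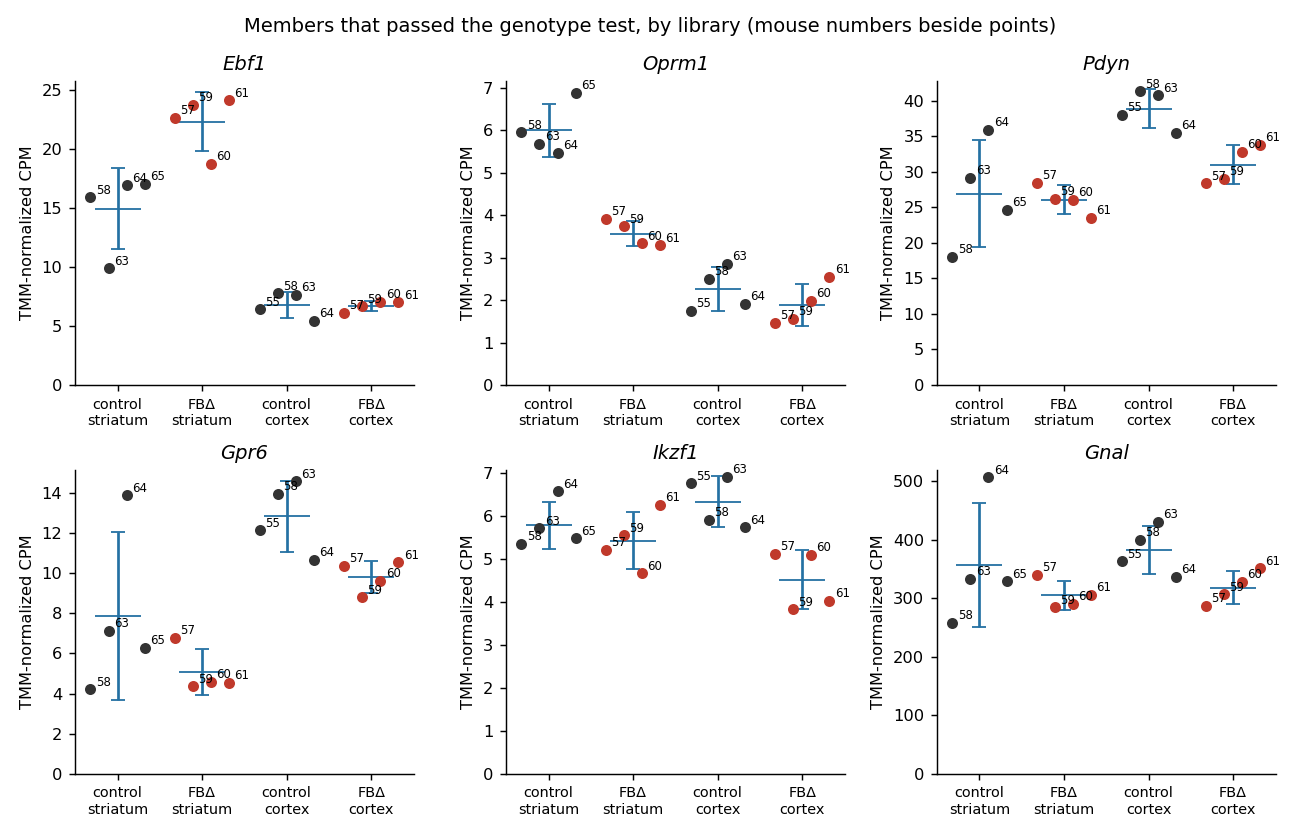
TMM-normalized CPM of the 6 members that passed the genotype test in a tissue, by library (points, labelled by mouse number; black for control, red for Trrap-FBΔ), with the group mean and SD in blue, n = 4 per group. Ebf1 is higher and Oprm1 lower in Trrap-FBΔ striata, and Pdyn, Gpr6, Ikzf1 and Gnal are lower in Trrap-FBΔ cortices.

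The receptors and peptides that mark SPNs most plainly varied in the cortex as Ppp1r1b did. Drd1 was at 20, 38.0, 40.2 and 18.1 CPM in control cortices (mice 55, 58, 63 and 64) and at 20.3, 20.1, 27.5 and 24.2 CPM in Trrap-FBΔ cortices. Drd2 was at 5.41, 19.6, 19.4 and 6.67 CPM in controls and 10.2, 10.3, 13.7 and 15.1 CPM in Trrap-FBΔ. For both genes all 4 Trrap-FBΔ values lay between the low and the high pair of controls. Adora2a followed the same order (11.7, 35.5, 39.7 and 11.7 CPM against 16.7, 17.7, 24.8 and 26.6 CPM), as did Penk (41.6, 136, 125 and 39.5 CPM against 44.0, 51.7, 67.3 and 69.0 CPM).

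Tac1 was at 17.2, 29.2, 33.1 and 17.7 CPM in control and 19.9, 21.7, 23.6 and 23.3 CPM in Trrap-FBΔ cortices. Of the transcription factors, Isl1 and Ebf1 were low in all cortices. Isl1 was at 2.08, 5.28, 3.27 and 1.11 CPM in controls and 1.51, 3.46, 3.45 and 3.5 CPM in Trrap-FBΔ. Ebf1 was at 6.4, 7.76, 7.61 and 5.43 CPM against 6.14, 6.67, 7.03 and 7.01 CPM. None of these members passed the test, with log2 fold changes of -0.34 ± 0.23 (Drd1), -0.06 ± 0.35 (Drd2), -0.21 ± 0.36 (Adora2a), -0.56 ± 0.36 (Penk), -0.14 ± 0.19 (Tac1), 0.00 ± 0.38 (Isl1) and -0.02 ± 0.11 (Ebf1). Without the control cortex of mouse 55, Rxrg (-0.83, adjusted p = 0.0368) and Rasd2 (-0.76, adjusted p = 0.00588) passed as well. Without that of mouse 58, Meis2 (0.27, adjusted p = 0.0394) passed and Gnal (-0.25, adjusted p = 0.0686) did not.

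**Figure D5:**
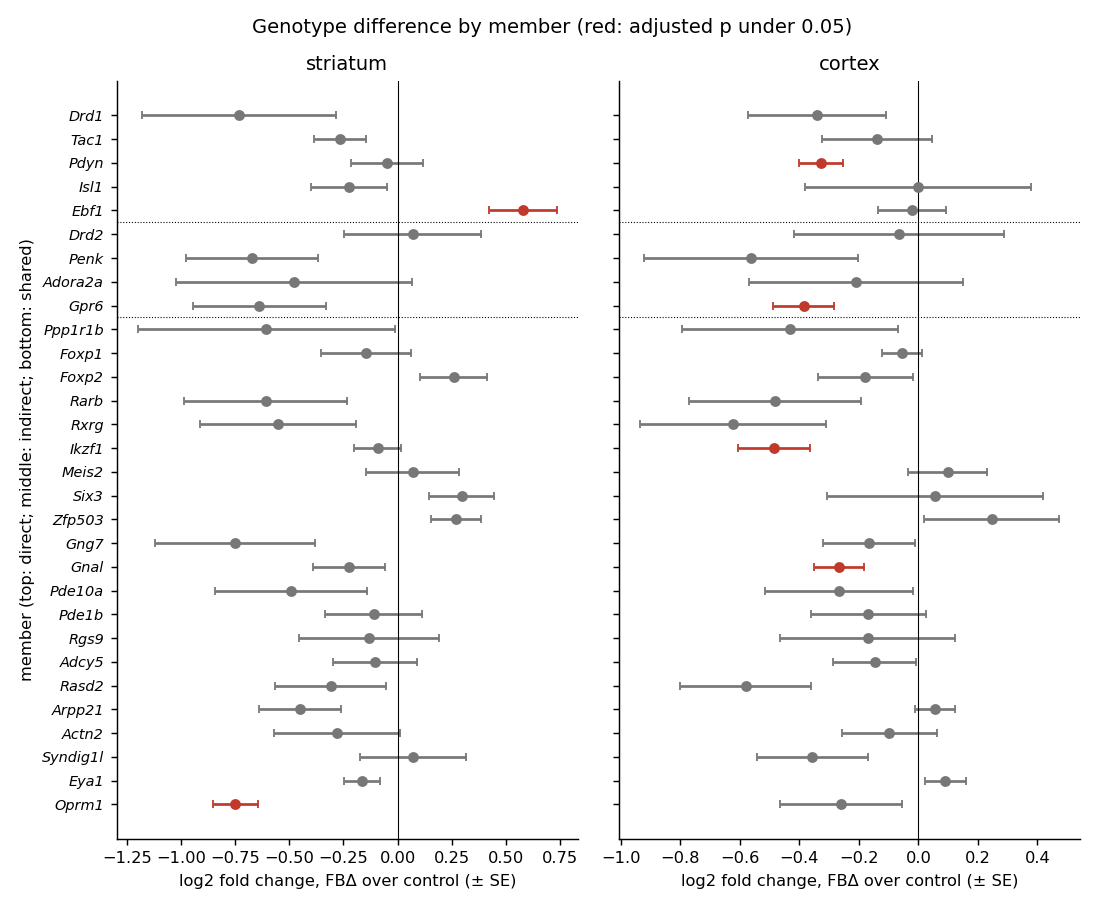
Log2 fold change of Trrap-FBΔ over control with its standard error for each of the 30 members in the striatum (left) and the cortex (right), from edgeR with 4 libraries per group, in red where the adjusted p was under 0.05. The 2 called members of the striatum (Ebf1 at 0.58, Oprm1 at -0.75) are not the 4 called in the cortex.

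To show the start regions of members whose level passed the genotype test, the RefSeq sequence before the transcription start was read for Ebf1, Oprm1, Pdyn, Gpr6 and Ikzf1 (build GRCm38.p6). For each, the 250 bases before the start that lay nearest to the annotated gene start and overlapped no annotated exon were taken, so that the windows of Ebf1, Oprm1 and Ikzf1 lie within the annotated gene, before a later start. Of all members, 23 had such start sequences, with 44 windows; Penk, Ppp1r1b, Syndig1l, Foxp2, Eya1, Gnal and Adora2a were not among them. They are printed 5′ to 3′ on the strand of the gene, in lower case, with capitals for the GC box GGGCGG on either strand, which zinc finger factors of the Sp family bind, for the cAMP response element TGACGTCA (its own reverse complement) and for the TATA box TATAAA on either strand.
Ebf1, chr11:44619978-44620227, plus strand: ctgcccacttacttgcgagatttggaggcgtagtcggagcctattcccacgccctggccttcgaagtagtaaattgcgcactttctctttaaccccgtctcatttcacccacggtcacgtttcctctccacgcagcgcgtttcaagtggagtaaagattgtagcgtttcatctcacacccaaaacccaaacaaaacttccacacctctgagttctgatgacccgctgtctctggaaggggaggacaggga
Oprm1, chr10:6788320-6788569, plus strand: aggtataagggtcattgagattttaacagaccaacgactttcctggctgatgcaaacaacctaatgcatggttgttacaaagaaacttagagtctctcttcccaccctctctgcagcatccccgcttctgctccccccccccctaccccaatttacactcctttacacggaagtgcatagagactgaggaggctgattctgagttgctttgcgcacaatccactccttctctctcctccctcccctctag
Pdyn, chr2:129699939-129700188, minus strand: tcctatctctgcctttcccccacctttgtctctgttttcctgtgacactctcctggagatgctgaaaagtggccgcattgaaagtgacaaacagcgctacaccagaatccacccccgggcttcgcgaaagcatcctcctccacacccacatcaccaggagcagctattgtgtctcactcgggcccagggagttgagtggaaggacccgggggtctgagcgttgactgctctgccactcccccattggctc
Gpr6, chr10:41072291-41072540, minus strand: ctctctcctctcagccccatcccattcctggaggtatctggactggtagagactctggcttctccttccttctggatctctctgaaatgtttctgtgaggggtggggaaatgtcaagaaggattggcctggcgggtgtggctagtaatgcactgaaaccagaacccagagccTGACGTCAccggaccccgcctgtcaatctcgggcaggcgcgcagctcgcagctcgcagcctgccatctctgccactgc
Ikzf1, chr11:11685675-11685924, plus strand: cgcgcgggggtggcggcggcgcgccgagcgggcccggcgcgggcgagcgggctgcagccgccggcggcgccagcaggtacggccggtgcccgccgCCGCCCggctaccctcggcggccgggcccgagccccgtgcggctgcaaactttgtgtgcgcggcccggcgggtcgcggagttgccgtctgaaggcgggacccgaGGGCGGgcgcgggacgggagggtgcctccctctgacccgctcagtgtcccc

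The Ikzf1 window held 2 GC boxes, whose leftmost bases lay 155 and 51 bases before the start, and had a G and C content of 82.0%. The Gpr6 window held 1 cAMP response element, 78 bases before the start, and a G and C content of 58.4%. No such letters occurred in the windows of Ebf1, Oprm1 and Pdyn (52.0%, 50.0% and 57.2% G and C). Over the members, 12 of 44 windows (27.3%) held a GC box, beside 10756 of 32851 windows of all genes (32.7%). The cAMP response element occurred in 1 of the 44 windows (2.27%), that of Gpr6, and in 1.55% of all windows, and the TATA box in 2 (4.55%), of Meis2 and Rgs9, and in 12.4% of all windows. A match of letters is a description and does not show that a factor was bound.

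The difference of the genotype effect between the tissues was tested over all 16 libraries. None of the 30 members passed, beside 0.437% of 19438 genes, and 4 members stood at an unadjusted p under 0.05, against 12.1% of all genes. DESeq2 called 0 members too. The interaction of Ebf1 was 0.60 ± 0.21 on the log2 scale (adjusted p = 0.233), that of Oprm1 -0.49 ± 0.24 (adjusted p = 0.419), that of Ikzf1 0.39 ± 0.17 (adjusted p = 0.345) and that of Pdyn 0.28 ± 0.20 (adjusted p = 0.627). A call in only 1 tissue for these members is thus no shown difference between tissues.

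Ratios of a direct- to an indirect-pathway member within a library also varied with the library, and did not move together. Drd1 over Drd2 (both in CPM) was at 0.71, 1.77, 1.53 and 1.13 in the control striata of mice 58, 63, 64 and 65 and at 0.86, 0.75, 0.92 and 0.64 in the Trrap-FBΔ striata of mice 57, 59, 60 and 61. Control mice 63, 64 and 65 were above every Trrap-FBΔ library, and mouse 58 lay inside the Trrap-FBΔ range. Cortices had ratios of 3.70, 1.93, 2.08 and 2.71 in controls and 1.99, 1.97, 2.0 and 1.60 in Trrap-FBΔ. Tac1 over Penk was at 0.51, 0.39, 0.24 and 0.42 in control and 0.38, 0.54, 0.52 and 0.45 in Trrap-FBΔ striata, and the groups overlapped. From mouse 58 to mouse 64 the first ratio was higher and the second lower. These ratios were chosen after the values were seen and were not tested.

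The wider gene set of SPNs was followed in a list of 30 other projection neuron genes. In the striatum 1 rose in Trrap-FBΔ (Gad2, the GABA-synthesising enzyme, at 365 to 462 CPM in controls and 485 to 566 CPM in Trrap-FBΔ) and 6 fell, with a median log2 fold change of -0.26 beside -0.01 over all genes. Those that fell were Chrm4, Ptpn5, Pcp4, Cnr1, Crym and Rgs2. In the cortex 3 rose and 6 fell (median -0.07). Hpca, a calcium sensor and the next most abundant gene of the list, was at 152 to 248 CPM in control and 196 to 225 CPM in Trrap-FBΔ striata. With 7 and 9 of 30 called, this list too was at or below the share of all genes called (30.2% and 33.3%).

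A list of 30 genes of dopamine and cAMP signalling, which act beyond SPNs, had more of its genes called, as a count with no test of the list. In the striatum 29 were tested, of which 12 fell and none rose (median -0.18), beside 15.8% of all genes called lower, and in the cortex 12 fell and 2 rose of 30 (median -0.14), beside 17.6% called lower. Gnas, the stimulatory G protein alpha subunit of most cells, was at 1243 to 1466 CPM in control and 1277 to 1406 CPM in Trrap-FBΔ striata, and at 1151 to 1300 CPM and 1015 to 1141 CPM in the cortices. Gnao1, the alpha subunit of Go, was at 701 to 846 CPM and 600 to 662 CPM in the striata and at 1144 to 1268 CPM and 853 to 1032 CPM in the cortices. No gene of either list passed the test of a difference between tissues in the genotype effect.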

How the data were processed

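RNA-seq of cortex and striatum was analysed in 16 libraries from 9 mice. The authors demultiplexed reads with bcl2fastq 1.8.4, aligned them to GRCm38 with STAR 2.5.4b and counted uniquely mapped reads per Ensembl gene with featureCounts 1.5.0, and they deposited raw counts with no normalization. Groups, mouse numbers and sex came from the labels. Symbols, coordinates and exon lengths came from GENCODE M21 (53706 of 53801 identifiers).

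Each tissue, or each genotype for tissue differences, was fitted in R 4.3.3 with edgeR 4.0.16 (filterByExpr, TMM, quasi-likelihood test, Benjamini-Hochberg adjustment, adjusted p under 0.05), separately in 8 libraries; all 30 matched members passed the filter. The interaction used 16 libraries. CPM are TMM-normalized over all 16, and TPM were computed from them. DESeq2 1.42.0 and other settings were run as alternatives. The steps were tested on simulated data. Same-numbered libraries come from 1 mouse, and their deviations from group means correlated with r of 0.101 to 0.449 in 7 pairs (over 19438 genes), but were negative in 5 pairs over the members alone; genotypes share no mouse. Members and lists were chosen with earlier results of these data known. All 31 members are accounted for; values in every library are given for direct- and indirect-pathway members, for shared members called by genotype and, chosen after its values were seen, Ppp1r1b. From the lists, the 2 most abundant genes and up to 5 called ones were to be named, and further names were chosen after their values were seen. An oligodendrocyte marker is not reported here and was left out of its list.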

Additional observations from a re-analysis of the deposited data

Results flagged for a closer look

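Of 124 groups of 4 libraries examined (30 members and Trrap in 4 groups), 6 held a library far from the other 3 by Dixon's test, and chance alone flags about 1 in 20 groups. In the Trrap-FBΔ striata, mouse 57 stood above the others for 4 members, at 34.3 CPM for Adora2a, 128 CPM for Ppp1r1b, 15.6 CPM for Rxrg and 6.78 CPM for Gpr6. The cortex of the same mouse stood below the other Trrap-FBΔ cortices for Isl1, at 1.51 CPM. In the control striata, mouse 63 stood below the others for Ebf1, at 9.87 CPM, and without it the log2 fold change of Ebf1 in the striatum was 0.42 (adjusted p = 0.00779, edgeR). The control striata of mice 58 and 64 were not set apart by this test for any member, although they were the lowest and the highest of their group for most.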

How the results depend on the processing

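Normalization by DESeq2 size factors or the upper quartile, DESeq2 in place of edgeR and sex as a covariate each left the count of members called by genotype at 2 in the striatum and 4 in the cortex. Leaving out 1 library gave 1 to 10 in the striatum, where the count was 10 without control mouse 58, 5 without control mouse 64 and 1 without Trrap-FBΔ mouse 59 or 61, and 3 to 6 in the cortex. Without a filter on low counts, 6 were called in the cortex. With all 16 libraries in 1 fit, 3 members were called in the striatum, 1 in the cortex (Ikzf1), with Pdyn, Gpr6 and Gnal at adjusted p of 0.0828, 0.243 and 0.174, and 13 between tissues of Trrap-FBΔ mice, where the spread of the control libraries enters the error. The count between tissues was 10 to 14 in control mice and 19 to 23 in Trrap-FBΔ mice without 1 library, and 10 in control mice without both libraries of mouse 58, a setting chosen after seeing the data. The replicate block (mouse) gave 10 members in control mice, 20 in Trrap-FBΔ mice and 0 for the interaction, and among members it ended no call other than that of Pdyn. No paired analysis was possible between genotypes because no mouse belongs to both. The interaction stayed at 0 members under all alternatives. Of 2542 values of single genes under alternatives, 26 lost and 32 gained a call, 0 called values changed sign, and 176 values that were not called did (19 by genotype in the striatum, 24 in the cortex and 78 for the interaction). Of all striatal members, Ppp1r1b had both the largest standard error of the log2 fold change (0.59) and the widest spread among control striata, and 4 libraries per group limit what can be detected at such a spread.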
